A study of Mus musculus with 2 samples.

Results

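CpG-island-like open regions away from promoters were examined in undifferentiated mouse embryonic stem cells (ESCs) with and without Uhrf1. A peak was counted as a distal CpG-island-like peak when its centre lay more than 2 kb from every GENCODE vM1 transcription start site (TSS) and its central 200 bp had a GC content of at least 55% and an observed/expected CpG ratio of at least 0.6. The observed/expected ratio is the number of CpGs times the window length, divided by the number of Cs times the number of Gs. Autosomes only were used, on mm9. The WT list held 3636 such peaks among 69440 autosomal peaks (5.24%) and 71914 peaks in all. The Uhrf1 KO list held 2203 among 59218 autosomal peaks (3.72%) and 61640 in all. The rule started from the listed peaks, so each of them is in at least 1 list by construction. Among those it used position and DNA sequence alone, and whether a peak had a partner in the other list played no part in it.

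The assay was ATAC-seq, which maps open chromatin by where a transposase, Tn5, can cut and tag DNA. The groups were WT E14 ESCs and Uhrf1 KO E14 ESCs, both undifferentiated and kept in LIF and serum medium on gelatin or feeder-coated plates, with 50000 cells lysed for each library. The Uhrf1 KO cells were 1 established line, so the genotype and the history of the line cannot be told apart. With 1 library per genotype there was no replicate error and no test between genotypes was possible. The values below compare these libraries, not the conditions, and the 95% exact (Clopper-Pearson) intervals cover counting error only, treating neighbouring peaks as independent although they are not.

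CpG islands are stretches of GC-rich DNA in which CpGs escaped the mutational loss that methylation causes elsewhere, and a large share of mammalian promoters have one. Islands far from annotated promoters, often called orphan islands, include unannotated or alternative promoters, CpG-rich coding exons of developmental genes, and CpG-rich retroelements. Unmethylated CpGs are bound by CXXC-domain proteins such as Cxxc1, which brings the Setd1 H3K4 methyltransferases. Uhrf1 binds hemimethylated CpGs and recruits Dnmt1, which copies methylation onto new DNA strands. The comparison therefore asked whether CpG-rich sites outside promoters are listed as open in cells with and without Uhrf1. DNA methylation was not measured in the files used here.

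Representative windows show what the rule selects. The first set gives the central 200 bp on the plus strand of mm9, with CpGs in capitals, of 1 peak each of several classes. Each is the peak with the lowest name number in its own list and class, a rank described further on, leaving out repeated sequence. A WT peak shared with KO lay 2.26 kb from the start of Pisd-ps1 and held 16 CpGs. A WT peak without a KO partner lay in a coding exon of Cdh22, a cadherin gene, and held 28. Another without a KO partner was intergenic, 7.94 kb from Mir137, and held 15. A KO peak without a WT partner lay 3.33 kb upstream of Igf2bp3, an RNA-binding protein gene, and held 18.
Shared, chr11:3023544-3023743: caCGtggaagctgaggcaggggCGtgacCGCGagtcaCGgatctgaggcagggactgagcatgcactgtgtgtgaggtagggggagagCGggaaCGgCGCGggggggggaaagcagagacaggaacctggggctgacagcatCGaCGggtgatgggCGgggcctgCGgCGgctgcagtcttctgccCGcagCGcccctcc
WT-only, Cdh22 exon, chr2:164937766-164937965: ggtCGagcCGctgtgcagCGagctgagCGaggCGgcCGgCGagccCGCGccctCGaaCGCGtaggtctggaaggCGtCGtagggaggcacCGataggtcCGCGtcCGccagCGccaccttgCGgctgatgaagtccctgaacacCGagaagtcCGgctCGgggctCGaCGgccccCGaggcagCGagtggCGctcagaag
WT-only, near Mir137, chr3:118128725-118128924: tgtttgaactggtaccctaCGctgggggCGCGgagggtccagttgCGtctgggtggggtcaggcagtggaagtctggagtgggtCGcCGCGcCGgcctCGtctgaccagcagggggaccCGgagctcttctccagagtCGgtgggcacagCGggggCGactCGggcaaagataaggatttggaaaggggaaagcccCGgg
KO-only, near Igf2bp3, chr6:49168179-49168378: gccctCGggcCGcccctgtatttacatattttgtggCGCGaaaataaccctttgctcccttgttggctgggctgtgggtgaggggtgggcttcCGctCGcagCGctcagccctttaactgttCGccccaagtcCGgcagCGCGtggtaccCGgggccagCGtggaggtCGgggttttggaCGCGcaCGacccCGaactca
Windows with few CpGs were rare, which the thresholds on GC content and CpG ratio largely fix in advance. In WT, 6 of the 3636 peaks held 1 to 4 CpGs, and in KO 11 of 2203. The median was 16 CpGs in WT and 15 in KO, with a highest value of 45 in both.

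The second set shows sequence that recurs in the genome. Distal island-like peaks whose central 200 bp shared an exact run of 31 bases were joined into sequence families, written here with the run found in most regions of the family in capitals and 35 bases on either side, on the strand that reads the run as given. Family 1 held this run in 47 of its 140 regions, family 2 in 21 of 107 and family 3 in 33 of 64. No repeat annotation was used, so the families carry numbers rather than names.
Family 1, both lists, chr15:29399609-29399709 (minus strand): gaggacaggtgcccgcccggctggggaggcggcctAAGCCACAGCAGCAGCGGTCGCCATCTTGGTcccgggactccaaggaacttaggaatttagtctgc
Family 1, WT-only, chr17:13981200-13981300 (minus strand): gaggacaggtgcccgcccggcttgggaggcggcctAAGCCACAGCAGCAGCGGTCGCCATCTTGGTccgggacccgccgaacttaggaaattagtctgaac
Family 1, KO-only, chr13:50215519-50215619 (plus strand): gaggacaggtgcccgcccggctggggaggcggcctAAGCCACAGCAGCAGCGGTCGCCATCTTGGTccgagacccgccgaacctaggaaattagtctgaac
Family 2, both lists, chr9:3175412-3175512 (minus strand): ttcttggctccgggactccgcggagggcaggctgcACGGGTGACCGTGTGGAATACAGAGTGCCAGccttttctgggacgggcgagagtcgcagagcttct
Family 2, WT-only, chr1:113477871-113477971 (minus strand): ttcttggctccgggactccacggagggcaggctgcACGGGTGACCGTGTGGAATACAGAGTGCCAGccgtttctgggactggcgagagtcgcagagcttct
Family 2, KO-only, chr7:57370800-57370900 (minus strand): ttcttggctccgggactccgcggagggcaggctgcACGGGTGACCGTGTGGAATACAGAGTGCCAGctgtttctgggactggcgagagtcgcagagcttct
Family 3, both lists, chr12:89218184-89218284 (minus strand): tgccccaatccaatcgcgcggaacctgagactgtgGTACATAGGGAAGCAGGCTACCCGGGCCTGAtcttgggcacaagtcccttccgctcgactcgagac
Family 3, WT-only, chr6:101991418-101991518 (minus strand): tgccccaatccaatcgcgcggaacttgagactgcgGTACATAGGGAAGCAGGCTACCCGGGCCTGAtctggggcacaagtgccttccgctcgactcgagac
Family 3, KO-only, chr8:7350983-7351083 (plus strand): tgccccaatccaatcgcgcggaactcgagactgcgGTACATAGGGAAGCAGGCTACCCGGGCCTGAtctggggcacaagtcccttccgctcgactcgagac
In each of these families a copy was listed in both libraries, another in WT only and another in KO only. In family 2 the WT-only and the KO-only copy were each identical to the shared copy at 98 of the bases shown, and in family 3 at 97. In family 1 the WT-only and the KO-only copy each matched the shared copy at 75, compared base by base with no gaps allowed. The WT-only and the KO-only copy were closer to each other than to the shared copy, as the printed bases show.

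Distal CpG-island-like peaks were fewer in the KO list, with 0.606 KO peaks for each WT peak, against 0.853 for all autosomal peaks and 0.998 for the other distal peaks. In WT, 1380 of 3636 (38.0%, 36.4 to 39.6) had no KO peak of any kind within 100 bp, against a background of 32.2% of all autosomal WT peaks. In KO, only 175 of 2203 (7.94%, 6.85 to 9.15) had no WT peak within 100 bp, against a background of 24.4% of all autosomal KO peaks. The share without a partner was thus above its background in WT and below it in KO.

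Other classes of peak differed in this balance. Of the other distal peaks, 39.4% of WT and 40.3% of KO peaks had no partner. Distal peaks with a GC content of at least 55% but an observed/expected ratio below 0.6, called GC-rich CpG-poor here, gave 9785 WT and 6799 KO peaks, a ratio of 0.695, with 43.8% and 23.2% without a partner. Island-like peaks within 2 kb of a TSS gave a ratio of 0.723, with 23.6% (23.1 to 24.1) of 26100 WT and 4.01% (3.73 to 4.30) of 18871 KO peaks without a partner. Distal island-like peaks therefore held a larger share without a partner than promoter island-like peaks in both lists, with intervals that did not overlap. By name number, the rank described further on, the promoter island-like peaks stood earlier. Their median percentile was 32.1 in WT and 34.9 in KO, against 44.2 and 44.4 for the distal ones. Peaks late in that numbering more often lacked a partner, and these classes were not compared within parts of it.

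**Figure D1:**
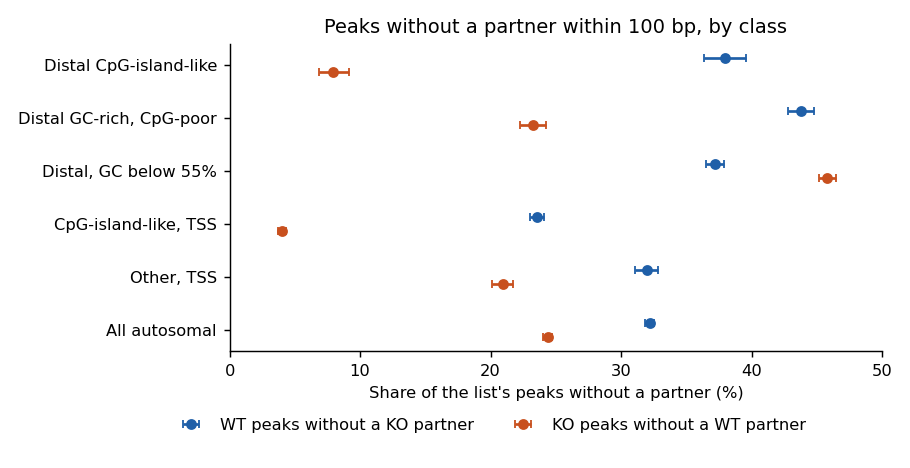
Share of peaks without a partner within 100 bp in the other list (horizontal axis, %), for 6 classes of autosomal peak (vertical axis); blue points are WT peaks, orange points KO peaks, and bars are 95% exact intervals for counting error. Distal CpG-island-like peaks stand at 38.0% in WT and 7.94% in KO; the WT share is the larger in every class drawn except distal peaks below 55% GC, at 37.2% in WT and 45.8% in KO.

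The KO to WT ratio of distal peaks moved with GC content, whether or not the peaks were rich in CpG. Among distal peaks with an observed/expected ratio of at least 0.6, it was 1.18 below 45% GC, 0.944 at 50 to 55%, 0.688 at 55 to 60%, 0.564 at 65 to 70% and 0.538 at 75% or more. Among those below 0.6, it was 1.70, 0.940, 0.739 and 0.604 in the first 4 of these GC ranges, and at 75% or more the counts were too few, at 11 WT and 4 KO peaks. When the ratio of the GC-rich CpG-poor distal peaks was taken at the GC contents of the WT island-like peaks, in steps of 1 percentage point pooled from 70%, it came to 0.625, close to the 0.606 observed. The same matching gave 40.7% without a partner in WT, near the observed 38.0%, and 13.5% in KO, above the observed 7.94%. Taken from promoter island-like peaks, the matched ratio was 0.755 and the matched WT share was 22.7%. With 1 library each, a GC-dependent difference between libraries and one between genotypes cannot be told apart.

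**Figure D2:**
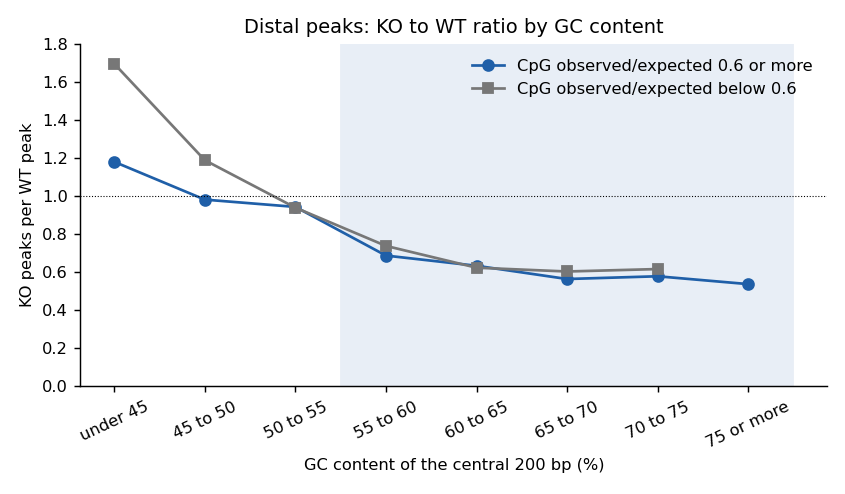
Number of KO peaks per WT peak (vertical axis) for distal peaks in bins of GC content of the central 200 bp (horizontal axis, %); blue circles are peaks with an observed/expected CpG ratio of at least 0.6, grey squares those below, and the shaded bins at 55% or more hold the distal CpG-island-like peaks in blue. Both lines pass from above 1 at low GC to about 0.6 at high GC; bins with under 20 peaks are not drawn.

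Within the class, CpG enrichment and the listing in WT varied little together. Peaks with an observed/expected ratio of 0.6 to 0.8 had a KO to WT ratio of 0.618 and those of 0.8 or more 0.588, with 39.3% and 36.1% of WT peaks without a partner. In KO the share without a partner was 45.5% (16.7 to 76.6) with 1 to 4 CpGs in the window, 15.6% (5.28 to 32.8) with 5 to 9, 11.1% (9.19 to 13.3) with 10 to 14, 6.49% (4.68 to 8.74) with 15 to 19 and 3.44% (2.14 to 5.21) with 20 or more. KO-only peaks thus concentrated among windows with fewer CpGs, and their median GC content of 60.5% was below the 65% of all KO island-like peaks. WT-only peaks had a median of 65% GC and 15 CpGs beside 65.5% and 16 for shared WT peaks.

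At the edges of the rule, the KO to WT ratio was 0.926 for CpG-rich distal peaks of 53 to 55% GC and 0.685 at 55 to 57%. It was 0.595 for an observed/expected ratio of 0.55 to 0.6 and 0.666 for 0.6 to 0.65. It was 0.625 for island-like peaks 1.5 to 2 kb from a TSS and 0.653 for those at 2 to 2.5 kb.

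CpG density was highest at the centre of these peaks, which follows from the rule, since it selects on the central 200 bp. Shared WT peaks held 8.74 CpGs per 100 bp in the first 100 bp beside the centre, 3.05 at 550 bp and 1.84 at 1050 bp. WT-only peaks followed the same profile, with 8.66, 3.12 and 1.85. KO-only peaks held 7.20 at the centre and 2.43 at 550 bp. Promoter island-like peaks were denser and broader, with 10.4 at the centre and 4.76 at 550 bp, and other distal peaks held 1.87 at the centre. The other distal peaks did not meet the thresholds on the same window, so that gap also follows from the rule. KO-only peaks also sat in the shortest islands, at a median of 400 bp against 620 bp for all KO and 630 bp for all WT distal island-like peaks, where an island is a merged run of windows that pass the rule's GC and CpG thresholds.

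**Figure D3:**
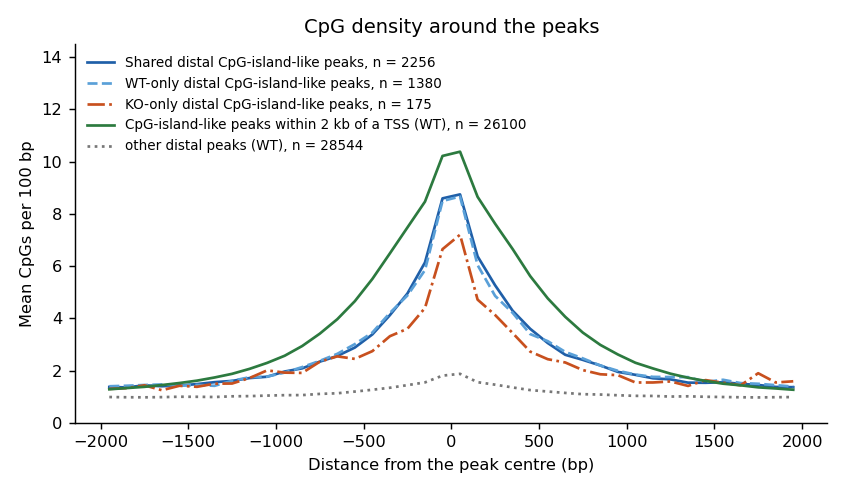
Mean number of CpGs per 100 bp (vertical axis) in 100 bp bins by distance from the peak centre (horizontal axis, bp), for shared, WT-only and KO-only distal CpG-island-like peaks, promoter island-like WT peaks and other distal WT peaks. Shared and WT-only curves overlie each other with 8.74 and 8.66 CpGs beside the centre, KO-only peaks reach 7.20, and the promoter curve is higher and wider. The central maximum follows from the rule, which selects on the CpGs of the central window.

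Most CpG islands outside promoters were not listed as open in either library. Scanning the autosomes in steps of 10 bp for 200 bp windows that pass these thresholds and merging them gave 52473 islands more than 2 kb from a TSS, of which 3920 (7.47%) held the centre of a WT peak and 2733 (5.21%) that of a KO peak. The share grew with island length. It was 3.41% in WT and 2.42% in KO for islands of 200 to under 300 bp, 24.6% and 17% for 500 to under 1000 bp, and 39.1% (35.6 to 42.6) and 28.5% (25.3 to 31.8) for 1000 bp or more. Near TSSs, islands of 1000 bp or more held a WT peak in 94.1% and a KO peak in 85.7%. Of the 773 long distal islands, 209 held a peak in both lists, 93 in WT but not KO and 11 in KO but not WT. Of all 52473 distal islands, 2303 held a peak in both lists, 1617 in WT but not KO and 430 in KO but not WT. Islands with a peak in 1 list alone were thus a smaller part of the listed long islands than of all listed distal islands. The KO to WT ratio of island numbers stayed between 0.684 and 0.728 over the 4 length classes of distal islands.

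The peaks fell into 3101 regions when those within 100 bp were merged, 1817 with peaks of both lists, 1118 WT-only and 166 KO-only. The median distance between the centres of partners was 22 bp, against 11 bp among other distal peaks. Of the 2256 shared WT peaks, 1967 (87.2%) had a partner that was itself a distal island-like peak. Of the 1380 WT-only peaks, 380 (27.5%) had a KO peak within 1 kb, and of the 175 KO-only peaks 49 (28.0%) had a WT peak within 1 kb. Shared WT peaks more often had another WT peak within 500 bp (68.0%, 66.0 to 69.9) than WT-only peaks did (52.5%, 49.9 to 55.2), against 30.1% of other distal WT peaks. In KO the share with another KO peak within 500 bp was 56.6% for shared peaks, 22.9% (16.9 to 29.8) for KO-only peaks and 24.4% for other distal peaks.

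The deposited score was 1 for every peak, so the only rank in the lists was the number at the end of each peak name, which restarts on each chromosome. It is written here as a percentage of the highest number of its chromosome, a low value standing early in the numbering. What the number measures is not stated in the sources used here. The numbering was divided into 5 equal parts. Of WT island-like peaks in the earliest part, 1.17% had no KO partner, and the share was 21.9%, 43.3%, 66.4% and 73.2% in the later parts. Other distal WT peaks gave 1.67%, 13.3%, 34.1%, 50.6% and 63.6%, lower than the island-like peaks in all but the earliest part. Among KO island-like peaks the share was 0.205%, 3.21%, 5.18%, 10.3% and 27.2%. In all 5 parts the KO share was below that of other distal KO peaks, which went from 5.16% to 62.7%. Sites without a partner were thus more frequent late in the numbering in both lists.

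The deficit was spread over the genome. The KO to WT ratio of distal island-like peaks was below that of all peaks on 19 of 19 autosomes and ran from 0.425 on chromosome 19 to 0.740 on chromosome 14. Chromosome 8, where the KO list was short of peaks of every kind with a ratio of 0.641, held 257 WT and 113 KO island-like peaks, a ratio of 0.440. Leaving it out moved the ratio of all autosomes from 0.606 to 0.619.

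By gene context, the peaks in coding exons stood apart. Of the WT peaks, 62% were intergenic, 17.5% lay in introns of protein-coding genes and 15.9% in coding exons, against 2.11% in coding exons among other distal WT peaks. Coding exons held 577 WT but 245 KO peaks, a ratio of 0.425, and 51.5% (47.3 to 55.6) of the WT peaks had no KO partner. Intergenic sites held 2254 and 1446, a ratio of 0.642 with 33.6% (31.7 to 35.6) without a partner, and introns 635 and 394, a ratio of 0.620 with 40.2% (36.3 to 44.1). At matched GC content, intergenic peaks gave a ratio of 0.633 and a share of 33.1% for comparison with the 0.425 and 51.5% of coding exons. The gap between coding exons and intergenic sites was present at 60 to 65% GC, with 57.1% (48.7 to 65.3) against 32.5% (28.8 to 36.5), and at 65 to 70%, with 55.9% (47.9 to 63.7) against 31.2% (27.4 to 35.1). At 70% or more it was 44.0% (37.2 to 51.0) against 33.0% (29.3 to 36.9). Coding-exon peaks stood later in the numbering, at a median of the 54.5th percentile against 40.7 for intergenic WT peaks, and within the 5 parts of the numbering the gap was smaller. From the earliest part to the latest, coding exons gave 2.17%, 22.8%, 52.9%, 71.6% and 77.8%, and intergenic sites 1.05%, 21.2%, 41.2%, 63.7% and 67.4%, with intervals that overlapped in every part. Other distal classes gave a lower ratio in coding exons too: distal GC-rich CpG-poor peaks gave ratios of 0.487 in coding exons and 0.708 in intergenic DNA, and distal peaks below 55% GC 0.669 and 1.18.

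**Figure D4:**
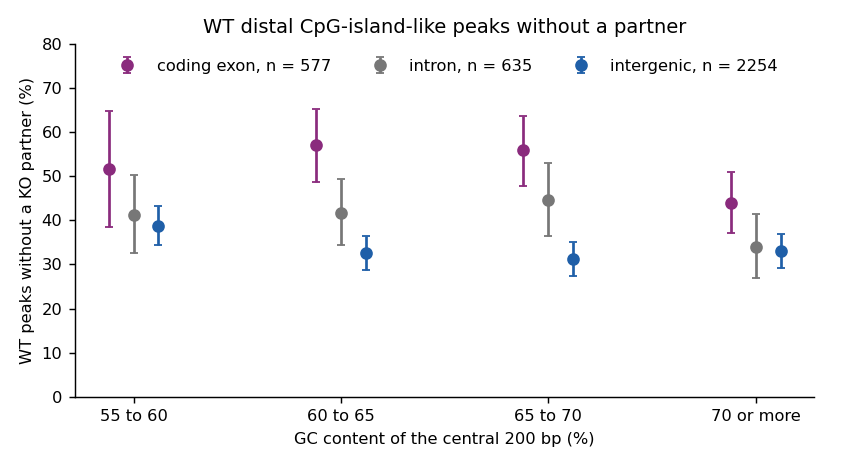
Share of WT distal CpG-island-like peaks without a KO partner (vertical axis, %) by GC content of the central 200 bp (horizontal axis, %), for peaks centred in coding exons (purple), introns (grey) and intergenic DNA (blue), with 95% exact intervals for counting error. Coding exons lie highest in all 4 bins, for example 57.1% against 32.5% for intergenic DNA at 60 to 65% GC.

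The coding-exon peaks lay in 391 gene entries, of which 357 held a WT peak and 171 a KO peak. At 187 of the 357 no WT peak had a partner, and at 132 every WT peak had one. The entries with most WT and KO peaks together, a count that favours entries listed in both, were Prdm13, 6330407J23Rik and Tchh. Prdm13, which encodes a zinc finger regulator of neuronal identity, and 6330407J23Rik had 10 WT and 7 KO peaks each. Tchh, the hair-follicle protein trichohyalin, had 8 and 5. Foxa1 held 5 WT peaks in its coding exon and 1 KO peak, with 4 of the 5 lacking a partner. Lor, which encodes the keratinocyte protein loricrin, held 2 WT and 5 KO peaks, all with a partner.

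Distal island-like peaks lay closer to genes than other distal peaks, at a median of 12.1 kb from the nearest TSS in WT against 22.4 kb, and 24.7% of them lay 2 to 5 kb away. RefSeq starts served as a second annotation of promoters. RefSeq promoter sequences, which are on GRCm38.p6, were placed on mm9 by an exact and unique match of the 31 bases at the start, which placed 30096 of 32847, none of them on chromosome 18. On the other 18 autosomes, 579 WT peaks (16.5%) and 351 KO peaks (16.4%) lay within 2 kb of a matched RefSeq start, at 332 genes in all. The ratio was 0.606 for these and 0.610 for the rest. WT peaks near a RefSeq start had no partner in 33.0% (29.2 to 37.0) and the rest in 38.8% (37.0 to 40.6), and KO peaks in 4.27% (2.41 to 6.95) and 8.55% (7.30 to 9.95). Among the genes with most such peaks were Rapgef5, a Rap guanine nucleotide exchange factor, with 7 WT and 4 KO peaks around chr12:118772197-118773164 and Rnf180, a ubiquitin ligase, with 7 and 3 around chr13:106083968-106084709.

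Genes with the most regions by nearest protein-coding TSS were of several kinds. After 2 genes beside a repeat array described below, Cxxc5 and Prdm13 had 8 regions each. Cxxc5, which encodes a CXXC-domain protein, had 11 WT peaks and 2 KO peaks between 35991444 and 36048889 on chromosome 18, with 2 regions in both lists, 5 WT-only and 1 KO-only. Prdm13 had 14 WT and 9 KO peaks, among them a run of 10 WT and 7 KO peaks over 1531 bp at chr4:21605517-21607047, all with a partner. Epb4.1l3, a cytoskeletal linker gene, Fat1, which encodes a giant cadherin, and Kdm6b, an H3K27 demethylase gene, had 6 regions each, of which 4, 5 and 5 were in both lists. Pcdh10, a protocadherin gene, also had 5 of 6 in both. Kdm6b had 7 WT and 1 KO island-like peaks although 5 of its regions counted as shared, because the KO partners there were not all island-like by the rule. Odz3, a teneurin gene, had 2 of 6 in both lists and 4 WT-only. Gdi2, which encodes a regulator of Rab GTPases, had 4 of 6 regions in both lists, and Gm5908 had 5 of 6. Odz3, Fat1 and Gm5908 lie on chromosome 8, where the KO list was short of peaks of every kind. On that chromosome 52.5% of all WT distal island-like peaks had no partner. Of 2203 protein-coding genes nearest to a region, 1625 had 1 region.

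Among the genes with 6 regions, Sox17 and Pax3, both developmental transcription factor genes, had the most and the fewest regions in both lists. At Sox17, an endoderm regulator, 5 regions lay in the gene at chr1:4481766-4483848, 2.65 to 4.58 kb downstream of the start, and the sixth 75.3 kb upstream. All 6 were in both lists, with 8 WT and 9 KO peaks. At Pax3, a neural crest and muscle regulator, 7 WT peaks and 1 KO peak were listed, and the KO peak lay 20.3 kb upstream of the GENCODE start. The other 5 regions, of which 1 in an intron 7.08 kb downstream and the rest 3.23 to 20.5 kb upstream, were WT-only. Of the 6 regions, 4 lay within 2 kb of a matched RefSeq start, at 647 to 1293 bp. The WT-only region at 78214148-78214248 began just beyond the 100 bp limit from the KO peak, which ended at 78214040. By name number, the Pax3 WT peaks without a partner stood at percentiles 43.7 to 93.4, and the Sox17 WT peaks at 12.2 to 60.9. Peaks late in the numbering more often lacked a partner at any locus, and a difference between these loci was not tested. At Foxa1, an endodermal pioneer factor gene, 9 WT and 2 KO peaks fell into 5 regions, 3 in both lists and 2 WT-only. Nr2f2, a nuclear receptor gene, had 7 WT and 3 KO peaks, with 3 of 5 regions WT-only.

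**Figure D5:**
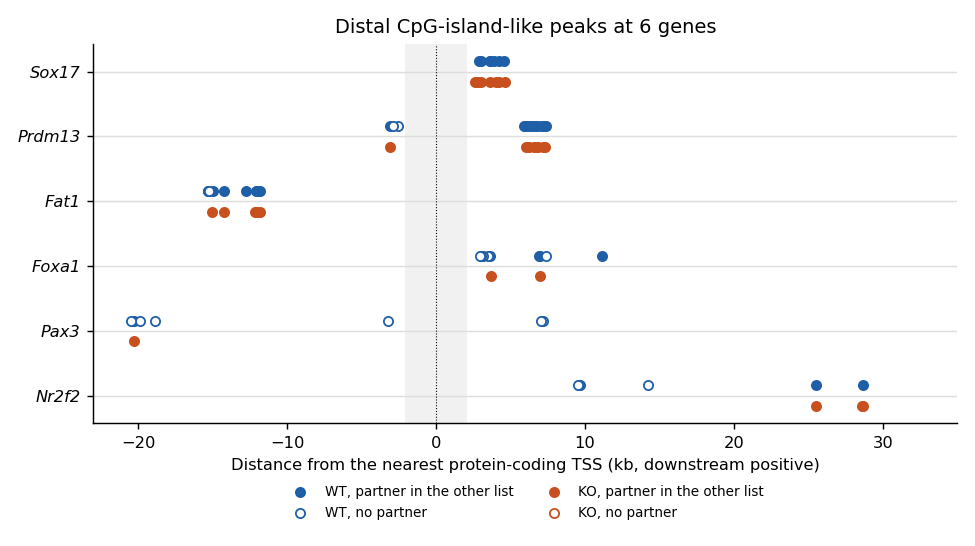
Positions of distal CpG-island-like peaks relative to the nearest protein-coding TSS (horizontal axis, kb, downstream positive) at 6 genes (vertical axis); blue points are WT peaks, orange points KO peaks, filled points have a partner within 100 bp in the other list and open points have none, and the grey band marks the 2 kb around the TSS that the rule leaves out. At Sox17 all points are filled, while at Pax3 6 of 7 WT points are open; peaks more than 23 kb upstream or 35 kb downstream are outside the axis.

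At developmental transcription factor genes the KO list was shorter for all peaks pooled and for distal island-like peaks. Counting all peaks by nearest protein-coding TSS, these genes had 1341 WT and 897 KO peaks, a ratio of 0.669 against the 0.853 of all autosomal peaks. A list of 188 such genes had 179 in the annotation, and 99 of them held 200 regions, 98 in both lists, 95 WT-only and 7 KO-only. The regions contained 242 WT and 118 KO peaks, a ratio of 0.488 against 0.614 for all other distal island-like peaks, and 50.4% (43.9 to 56.9) of the WT peaks had no partner against 37.1% (35.4 to 38.7). The median GC content was 65.3% and 65.5%, and other peaks at matched GC gave 0.623 and 37.5%. The WT peaks at these genes stood later in the numbering, at a median percentile of 54.4 against 43.7, and 19% of them lay in coding exons against 15.6%. Without chromosome 8 the share was 49.1%. The list was assembled with earlier results of these data known.

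The other lists were small. Of all 3101 regions 1118 were WT-only, and 38.0% of all WT distal island-like peaks had no partner. For every list in this paragraph the interval of that share contained 38.0%. Counting all peaks, these lists had KO to WT ratios from 0.561 at Hox genes to 0.913 at imprinted genes. All autosomal peaks gave 0.853. Of 58 signalling ligand genes, 15 held 22 regions with 30 WT and 19 KO peaks, among them Gdf6, a BMP family ligand gene with 3 and 3, Wnt10a with 4 and 1, and Dll4, a Notch ligand gene with 4 and 3. The pluripotency list, with 38 genes in the annotation, had 24 regions at 14 genes with 30 WT and 17 KO peaks. Of these WT peaks, 33.3% (17.3 to 52.8) had no partner, and the ratio of all peaks at these genes was 0.865. All 3 regions of Klf4 and all 3 of the nuclear receptor gene Nr5a2 were in both lists, whereas both regions of Sox2 and both of Sall1 were WT-only, and 2 of 3 of Jarid2, a PRC2 cofactor gene. Sall1, Nanos3 and Hand2 lie on chromosome 8, which the KO list covered least. Imprinted genes had 15 regions at 13 genes with 13 WT and 12 KO peaks. Trappc9 had 3 of these regions, 2 in both lists and 1 KO-only, and both regions of Cdkn1c, a cell-cycle inhibitor gene, were WT-only. Germline genes had 6 regions with 7 WT and 3 KO peaks, all at Nanos3 and Nanos2, which encode RNA-binding proteins of germ cells. Of 39 Hox genes in the annotation, 4 had 1 region each, 3 of them in both lists. Clustered protocadherins had 7 regions with 4 WT and 4 KO peaks. Genes that the study followed, a choice that is not independent of these libraries, had 22 regions at 9 genes with 28 WT and 18 KO peaks, including 5 regions at Hand2, a heart and limb regulator, with 6 WT and 3 KO peaks, and 2 regions in both lists at Msx2. A list of DNA methylation and COMPASS genes, which also included the PRC2 gene Ezh2, had 18 regions. Of these, 13 were nearest to Ezh2, in or beside the repeat array described next. The others were 3 at Tet1, 1 at Tet3 with 6 WT and 3 KO peaks, and 1 at Dnmt3a. All of those were in both lists except 1 at Tet1, and none was at a COMPASS gene.

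Peaks that belonged to a sequence family made up a minor share. Repeats that share no exact run of 31 bases with another listed peak were not counted, so the share of all repeated sequence is not known. In WT, 568 peaks (15.6%) and in KO 420 (19%) belonged to 60 sequence families, 40 of them spread over several chromosomes. Of KO-only peaks, 33.7% (26.8 to 41.2) were in a family, against 17.8% (16.2 to 19.5) of shared KO peaks. Peaks in a family had a ratio of 0.739 and those in none 0.581. By the study's methods each read was kept at a single alignment. A read from an exact copy is then placed at only one of the copies, so the listing of a single copy is uncertain. The central 31 bases occurred more than once in the genome in 9.76% of WT and 10.2% of KO peaks.

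The families differed in their balance. Family 1, with 142 WT and 73 KO peaks on 18 chromosomes, had a ratio of 0.514, with 46.5% (38.1 to 55) of WT and 2.74% (0.334 to 9.55) of KO peaks without a partner. Family 2, with 88 WT and 86 KO peaks on 18 chromosomes, had a ratio of 0.977, with 23.9% (15.4 to 34.1) and 18.6% (11.0 to 28.4). The intervals of these WT shares did not overlap, nor did those of the KO shares. Family 2 contributed 16 of the 175 KO-only peaks, more than any other family. Median GC content was 65% in family 1 and 59.5% in family 2. Family 3 had 59 and 43 peaks and family 5 had 36 and 25. Family 9, at 8 WT and 12 KO peaks, was larger in KO, with 5 of the 12 KO-only.

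Family 4 lay almost wholly in an array. Of its 47 WT and 24 KO peaks, 46 and 24 lay at chr6:47605000-47728506 between Ezh2 and Pdia4, and 17 and 3 of these had no partner. The run of 31 bases most common in it occurred 16 times over the span, with a median spacing of 4336 bp. Of the 15 spacings, 12 were within 200 bp of that median, and the largest was 54595 bp. Shown because its copies recur side by side, with that run in capitals, a copy listed in both libraries read as follows.
Family 4, both lists, chr6:47728339-47728439 (plus strand): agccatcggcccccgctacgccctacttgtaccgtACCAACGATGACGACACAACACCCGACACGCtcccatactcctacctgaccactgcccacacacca
In RefSeq, Rn4.5s, annotated as a ribosomal RNA gene, lies among the genes next to Ezh2. The central 31 bases of the family's peaks occurred a median of 16 times in the genome, so the placement of a read among the units is uncertain.

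In the cluster with the most peaks, chaining peaks within 2 kb, every WT peak had a partner. The ranking counted WT and KO peaks together, which favours sites dense in both lists. Where peaks stand this close, a partner within 100 bp is nearly given, so the sharing is no separate result. At chr17:39980143-39983654, 23 WT and 22 KO peaks covered 3512 bp. The nearest annotated start was that of AY036118, and in RefSeq the neighbour of AY036118 is Rn18s-rs5, annotated as a pseudogene. The peak of this cluster with the lowest name number, with CpGs in capitals, held 23 CpGs.
Cluster, chr17:39981588-39981787: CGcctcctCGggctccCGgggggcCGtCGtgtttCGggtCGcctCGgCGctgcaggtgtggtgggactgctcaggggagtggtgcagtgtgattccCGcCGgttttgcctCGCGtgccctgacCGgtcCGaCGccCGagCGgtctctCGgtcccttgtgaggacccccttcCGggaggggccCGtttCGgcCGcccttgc
Among the next largest clusters, 10 WT and 7 KO peaks at Prdm13, 7 and 7 at Sox17 and 7 and 5 near Chd2 included 0 WT-only peaks. The same held for 7 and 6 at 6330407J23Rik, 5 and 7 near Gm10240 and 7 and 4 at Rapgef5. Near Fat1 3 of 9 WT peaks had no partner, at Tchh 2 of 8 and near Arhgap5 2 of 5. A smaller cluster at Nkx2-3, chosen after its values were seen, held 8 WT peaks and 1 KO peak. Of those 8, 5 had no partner.

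The 10 shared regions with the lowest name numbers in both lists were all intergenic, and 7 of them belonged to a sequence family. Of the others, 2 lay in the cluster on chromosome 17 and 1, at chr11:108873182-108873282, lay 4.27 kb from Gm11668 with 64.5% GC and 20 CpGs. The 8 WT-only peaks with the lowest name numbers stood at the 4.79th to the 18th percentile and 4 of them were in a family. They included the Cdh22 exon and the site near Mir137 shown above, and a site 48.3 kb from Tmem174 with no KO peak within 62.9 kb. The 8 KO-only peaks stood later, at the 17.9th to the 30.7th percentile, 5 of them in a family. Of these 8, 4 had a WT peak within 200 bp, among them the Igf2bp3 site, whose nearest WT peak was 123 bp away.

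Short motifs of transcription factors were counted in the central 200 bp on both strands. The SP/KLF motif GGGGCGGGG was in 10.6% of WT and 11.8% of KO distal island-like peaks, against 10.5% of all autosomal WT peaks and 19.5% of promoter island-like WT peaks. It was in 12.7% (11.3 to 14.1) of shared WT peaks and 7.10% (5.80 to 8.59) of WT-only peaks. Of the 384 WT peaks with this motif, 25.5% (21.2 to 30.2) had no KO partner, against 38.7% for peaks without it at matched GC. The cAMP response element TGACGTCA was in 1.95% (1.42 to 2.61) of shared and 0.580% (0.251 to 1.14) of WT-only peaks and in 1.25% of all autosomal WT peaks. Of the 52 WT peaks with it, 15.4% (6.88 to 28.1) had no partner. The same order appeared among promoter island-like WT peaks, of which 23.6% had no partner. There the share was 14.8% (13.9 to 15.9) with the SP/KLF motif and 10.8% (8.45 to 13.6) with the cAMP response element. Neither motif was compared within parts of the name numbering. The motif of NRF1, a regulator of nuclear genes for mitochondria that is sensitive to DNA methylation, GCGCATGCG, was in 1.54% of WT and 1.45% of KO peaks against 1.16% of all autosomal WT peaks. It was in 0 of 175 KO-only peaks. Taking 3 counts as the limit that a count of 0 allows, the share could be up to 1.71%, and the exact interval reached 2.09%. The CTCF core AGNGGGCGC, which can overlap the SP/KLF motif at GGGCG, was in 8.09% of WT and 8.03% of KO peaks against 4.72% of all autosomal WT peaks. Of WT peaks with it, 33.7% (28.3 to 39.4) had no partner.

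For NRF1, CTCF and all the remaining motifs the intervals of shared and WT-only peaks overlapped. The Zfp57 hexamer TGCCGC was in 18.4% of shared and 18.7% of WT-only peaks, 12.4% of all autosomal and 21.7% of promoter island-like WT peaks. The YY1 motif AAGATGGCG was in 3.77% and 4.13% and in 1.45% of all. Of the 142 WT peaks with it, 91 were in family 1, whose run of 31 bases printed above holds its reverse complement, and 125 were in a family of any kind. The octamer ATGCAAAT, bound by Oct4, was in 0.605% (0.380 to 0.915) of WT island-like peaks against 2.60% of other distal WT peaks. Classes of like GC content were also low, at 0.971% (0.786 to 1.19) of distal GC-rich CpG-poor and 0.628% of promoter island-like WT peaks. The ETS motif CCGGAAGT was in 1.29% (0.951 to 1.72) of WT island-like peaks, 2.18% of all autosomal and 4.39% of promoter island-like WT peaks. The REST part-motif TTCAGCACC was in 16 WT island-like peaks, the USF motif GTCACGTGA in 12 and the Zbtb33 motif TCTCGCGAG in 5. All autosomal WT peaks held these in 0.563%, 0.547% and 0.372%.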

How the data were processed

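The data are ATAC-seq peak lists of 1 WT E14 ESC library and 1 Uhrf1 KO library. The authors aligned reads to mm9 with Bowtie2 in local mode and used fragments below mono-nucleosome size, and the deposited files hold peak positions with a score of 1 for every peak. The submitters' processing notes name Bowtie2 2.1.0 and HOMER 4.9.1, and give HOMER no role. The peak caller and its threshold are not given in the sources used here. The deposited files hold no read counts, so the depth behind a peak cannot be read from them, and the study's own table of read totals was not used here. Peaks were 101 bp wide except 1.

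GC content and CpG counts were read from mm9 with Python 3.11.15, numpy 2.4.6 and pandas 2.3.3, and transcription starts from GENCODE vM1. Of the autosomal peaks, 152 WT and 137 KO peaks had undetermined bases in the window and could not be members. A peak had a partner when the gap to any peak of the other list was at most 100 bp, the study's distance for factor peaks. Exact intervals came from scipy 1.17.1. With 1 library per genotype no test was run. The partner and window calculations were tested on 5000 simulated regions and 2000 simulated windows with known answers, with 0 wrong calls. Regions were named by rule: the 10 shared, 8 WT-only and 8 KO-only ones with the lowest name numbers, the 10 protein-coding genes with most regions, the 3 genes with most regions in each of 9 gene lists, the 5 largest sequence families and 11 motifs. Other genes and regions named were chosen after their values were seen. The members and lists were chosen with earlier results of these data known.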

Additional observations from a re-analysis of the deposited data

How the results depend on the processing

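The KO to WT ratio of distal CpG-island-like peaks was 0.606 and stayed between 0.579 and 0.689 over 16 alternatives. It was 0.642 for intergenic peaks only and 0.689 when the WT list was shortened by name number to the length of the KO list. The share of WT peaks without a partner, 38.0%, ran from 32.9% to 56.5%. It was 44.4% with at least 1 bp of overlap, 56.5% with 50% of both peaks overlapping, 36.0% with the central 500 bp, 40.3% with merged regions, 33.6% for intergenic peaks and 32.9% with lists of equal length. The share of KO peaks without a partner, 7.94%, ran from 4.49% to 30.3%. It was 13.8% with at least 1 bp of overlap, 30.3% with 50% of both, 4.58% with GC and observed/expected thresholds of 60% and 0.75, 4.49% with the central 500 bp, 9.51% with merged regions, 6.58% without sequence families and the chromosome 17 cluster, 6.57% for intergenic peaks and 10.5% with lists of equal length. The WT share was above the KO share under every one of these alternatives. That order mostly restates the ratio and is no separate result. Similar numbers of peaks, 2256 in WT and 2028 in KO, were shared, so the longer WT list had more left without a partner. The alternatives with families, intergenic peaks and equal list lengths were among 6 chosen after seeing the data. With lists of equal length the ratio was 0.855 for GC-rich CpG-poor distal peaks, 0.787 for promoter island-like peaks and 0.498 for peaks in coding exons.

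No paired analysis was possible because there was 1 library per genotype and no test. No replicate was left out for the same reason. The lists give neither read counts nor peak heights, so the size of a difference at a single site is not known, only whether a peak was listed.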
